A study of Mus musculus with 5 samples.

Results

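The casein gene cluster was examined through its 5 members, Csn1s1, Csn2, Csn1s2a, Csn1s2b and Csn3, in mammary gland of female FvB/N mice aged 8 weeks. Each member was taken by its gene symbol and was read by 1 probe set, out of 19938 genes that had a probe set of their own. The labels describe 2 groups: 2 mice with the MMTV-rtTA transgene alone (rtTA control) and 3 bi-transgenic mice with rtTA and cyclin D1 (rtTA/CCND1). Each mouse gave 1 Affymetrix whole-transcript array, and the design text calls the mice separate animals. rtTA is a doxycycline-dependent transactivator, and MMTV names the promoter of mouse mammary tumour virus, which is active mainly in mammary epithelium. The treatment protocol gives 7 days of doxycycline for rtTA mice with a "KE" mutant of CCND1. Doxycycline treatment of the controls, the form of cyclin D1 in these mice (wild type or that mutant) and their reproductive stage are not given in the sources used here. According to the title, the study asked how the gland responds to acute expression of cyclin D1.

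Caseins are the main proteins of milk, made by the secretory alveolar cells of the mammary epithelium. The calcium-sensitive caseins (alpha and beta) carry clusters of phosphoserine that bind calcium phosphate, and kappa-casein coats the surface of the micelle and keeps it in suspension. In the mouse Csn1s1 encodes alpha-S1-casein, Csn2 beta-casein, Csn1s2a and Csn1s2b the alpha-S2-like caseins, and Csn3 kappa-casein. Their transcription is driven by prolactin through its receptor, the kinase JAK2 and the factor STAT5, together with glucocorticoid receptor, C/EBPbeta and ELF5. Beta-casein RNA is known to be present in the gland already before pregnancy, so a casein signal by itself does not mark lactation.

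The caseins stood higher in cyclin D1 glands than in controls on the deposited scale, by very different amounts. Csn1s2b had the greatest difference, 4.25 on the log2 scale, and Csn2 the smallest, 0.89. The higher a casein's control mean, the smaller was its difference, with control means from 4.70 (Csn1s2b) to 10.86 (Csn2). The part of signal level in this order was not tested. Csn3, Csn1s1 and Csn1s2a rose by 2.52, 2.08 and 1.85 and passed the test across all genes, whereas Csn1s2b and Csn2 did not. All 3 calls were lost when the arrays were brought to a common distribution, as given below.

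Sequence upstream of the genes is shown because STAT5 binds the palindrome TTCNNNGAA, which reads the same on both strands. RefSeq promoter sequences on GRCm38.p6 were at hand for 3 of the 5 genes. The 250 bases before the annotated start are printed 5′ to 3′ on the gene's strand, with each match to TTCNNNGAA in capitals.
Csn1s1 (chr5:87665958-87666207, + strand): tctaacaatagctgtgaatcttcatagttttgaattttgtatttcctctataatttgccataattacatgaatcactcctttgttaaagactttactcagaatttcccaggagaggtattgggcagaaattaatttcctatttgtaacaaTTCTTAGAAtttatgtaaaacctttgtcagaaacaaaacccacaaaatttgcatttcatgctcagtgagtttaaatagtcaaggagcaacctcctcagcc
Csn2 (chr5:87699426-87699675, - strand): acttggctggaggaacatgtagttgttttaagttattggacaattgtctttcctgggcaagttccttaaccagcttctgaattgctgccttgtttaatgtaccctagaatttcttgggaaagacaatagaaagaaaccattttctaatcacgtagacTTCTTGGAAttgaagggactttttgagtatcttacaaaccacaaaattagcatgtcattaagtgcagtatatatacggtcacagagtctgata
Csn1s2a (chr5:87774200-87774449, + strand): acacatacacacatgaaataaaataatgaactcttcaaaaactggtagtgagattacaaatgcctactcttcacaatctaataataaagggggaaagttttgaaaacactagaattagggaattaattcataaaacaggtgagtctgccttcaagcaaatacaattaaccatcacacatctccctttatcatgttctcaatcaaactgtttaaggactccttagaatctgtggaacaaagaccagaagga

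In Csn1s1 the match TTCTTAGAA began at position -100 from the start, and in Csn2 the match TTCTTGGAA began at position -93. Csn1s2a had no match in the printed bases and held TTCTTAGAA at position 21 after the start (chr5:87774470-87774478). Of 32851 promoter entries, 7.02% held this palindrome in the 250 bases before the start and 8.3% in the whole window of 300 bases. The octamer ATTTGCAT, bound by OCT1, was searched on both strands and lay at position -54 in Csn1s1, against 1.74% of all entries in the 300-base window. The half-site AGAACA of the glucocorticoid receptor, also on both strands, lay at position -59 in Csn1s2a, against 19.0% of entries. These matches describe the letters alone and are no evidence of binding in these glands.

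The arrays differed in ways that bear on every value below. Gene values spread less within each control array (SD 0.735 and 0.926) than on the arrays of cyclin D1 replicates 1, 2 and 3 (SD 1.32, 1.38 and 1.2), and bright genes as a class were higher and dim genes lower in cyclin D1 glands. Ccnd1, the mouse cyclin D1 gene, stands outside the rule for named genes. It differed by 0.75 (SE 0.32, limma adjusted p = 0.218), and its groups overlapped. After quantile normalization, which gives all 5 arrays the same distribution of values, its difference was -0.14. Whether its probe set reads RNA of the transgene was not tested, so these values do not check the labels. Over all genes 5.38% were called higher and 0.687% lower on the deposited scale. Of the 1994 genes with the highest mean, 36.0% were called higher. Krt8, a luminal epithelial marker, read 3.65 to 6.28, and the mean of 12 such markers ran from 3.21 to 4.04 over the arrays. The mean of olfactory receptor genes, a rough floor of signal, ran from 1.97 to 2.52. Lpl, a fat marker also on the list of milk proteins, read 6.06 to 8.83. The mean of 11 fat markers ran from 4.75 to 5.87. In whole gland, fewer cells of a type and less RNA per cell cannot be told apart.

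Beta-casein, Csn2 (probe set 10531120), was bright in every gland. Its log2 expression was 10.44 and 11.28 in the 2 controls and 12.05, 11.43 and 11.74 in cyclin D1 replicates 1 to 3. The 3 cyclin D1 values lay above both controls, but the lowest exceeded the highest control by only 0.16. The difference of 0.89 (SE 0.31, 95% interval 0.10 to 1.68, limma adjusted p = 0.153) missed the threshold. Intervals here and below are not adjusted for the number of genes. Csn2 was the gene with the highest value on the array of cyclin D1 replicate 1, and in control 2 a single gene stood above it. After quantile normalization the 2 controls had 11.35 and 11.61 and the cyclin D1 glands 11.84, 10.73 and 11.61, so the groups overlapped and the difference was -0.09 (95% interval -0.98 to 0.80). The direction for Csn2 therefore depended on the scale. Quantile normalization sets each value by the gene's rank on its array. Csn2 ranked 3rd in control 1 and 2nd in control 2, and 1st, 8th and 2nd in cyclin D1 replicates 1 to 3. The part of these ranks in the change of direction was not tested.

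Alpha-S1-casein, Csn1s1 (probe set 10522827), measured 9.07 and 10.04 in the controls, against 11.71, 11.69 and 11.52 in cyclin D1 glands. The cyclin D1 glands lay close together, within 0.18, and all of them exceeded control 2, the higher control, by at least 1.48. This was a 4.24-fold rise (log2 difference 2.08, SE 0.30, limma adjusted p = 0.0283). After quantile normalization the difference was 0.98 (95% interval 0.35 to 1.61) and no longer passed, with an adjusted p = 0.132. The groups still did not overlap on that scale, with 10.09 and 10.48 in the controls against 11.26, 11.61 and 10.93.

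The 2 alpha-S2-like caseins behaved differently from each other across the arrays. Csn1s2a (probe set 10522845) measured 9.47 and 10.12 in the controls, against 11.75, 11.48 and 11.71 in cyclin D1 glands, a 3.61-fold rise (log2 difference 1.85, SE 0.23, limma adjusted p = 0.0226). Its groups were separated by 1.36. After quantile normalization its difference was 0.64 (95% interval 0.02 to 1.27, adjusted p = 0.257).

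Csn1s2b (probe set 10522858) was the only casein that stood low in the controls, at 4.63 and 4.77, while the mean of 1027 olfactory receptor genes, a rough floor of signal, was 2.52 and 2.38 there. In cyclin D1 glands it stood at 9.69, 10.54 and 6.60. Replicate 3 was thus much closer to the controls than replicates 1 and 2 were, and the spread within the cyclin D1 group reached 3.94. The log2 difference of 4.25 (19.0-fold, SE 1.16, 95% interval 1.33 to 7.16) ranked 9th among all genes by size but did not pass (limma adjusted p = 0.0963). Without cyclin D1 replicate 3 the difference was 5.42 and passed (adjusted p = 0.0439). On the quantile-normalized scale the controls had 6.0 and 5.38 and the cyclin D1 glands 9.06, 9.61 and 6.18, a difference of 2.59 (95% interval -0.02 to 5.20, adjusted p = 0.270). Control 1 and cyclin D1 replicate 3 then differed by less than the 2 controls did.

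Kappa-casein, Csn3 (probe set 10522895), had the smallest p of the family and the 42nd smallest of all genes. Its values were 7.96 and 8.51 in the controls, against 10.79, 10.68 and 10.81 in cyclin D1 glands. The cyclin D1 glands lay within 0.13 and exceeded the higher control by at least 2.16. The rise was 5.74-fold (log2 difference 2.52, SE 0.20, 95% interval 2.02 to 3.02, limma adjusted p = 0.0147). After quantile normalization the difference was 1.14 (95% interval 0.74 to 1.54, adjusted p = 0.0541), with 9.24 and 8.98 in the controls and 10.19, 10.19 and 10.39 in cyclin D1 glands.

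**Figure D1:**
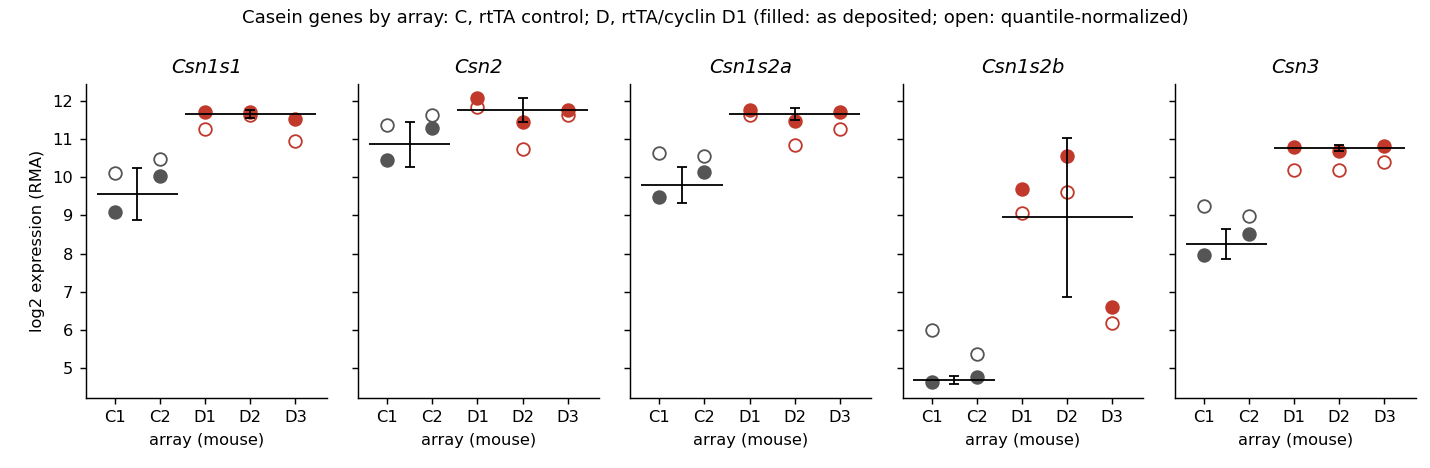
Log2 expression of the 5 casein genes on each array (C1 and C2, rtTA controls in grey; D1 to D3, cyclin D1 glands in red). Filled points are the deposited values with the group mean (line) and SD (bar); open points are quantile-normalized values. Csn3 is tight within groups, Csn1s2b is spread from 6.60 to 10.54 among cyclin D1 glands, and the open points of Csn2 overlap between groups.

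Read against all genes, 3 of the 5 caseins were called higher where 5.38% of all genes, 36.0% of the 1994 brightest and 23.0% of the 100 brightest genes were. After quantile normalization 0 of the 5 passed by limma, 3 had an unadjusted p under 0.05 and 4 a positive difference. On that scale 0.256% of all genes were called higher, 18.7% had an unadjusted p under 0.05 and 47.8% a positive difference. All 5 caseins had every cyclin D1 value above both controls on the deposited scale. That held for 22.4% of all genes and for 82.2% of the 1994 brightest, and the reverse order held for 22.6% of all genes. With quantile normalization it held for 4 of the 5, against 20.1% of all genes. The median difference was 2.08 over the caseins, -0.05 over all genes and 1.77 over the 100 brightest genes. The same medians after quantile normalization were 0.98, -0.02 and 0.10. Csn2, Csn1s2a, Csn1s1 and Csn3 had the 2nd, 6th, 8th and 14th highest mean of all genes and Csn1s2b the 133rd.

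**Figure D2:**
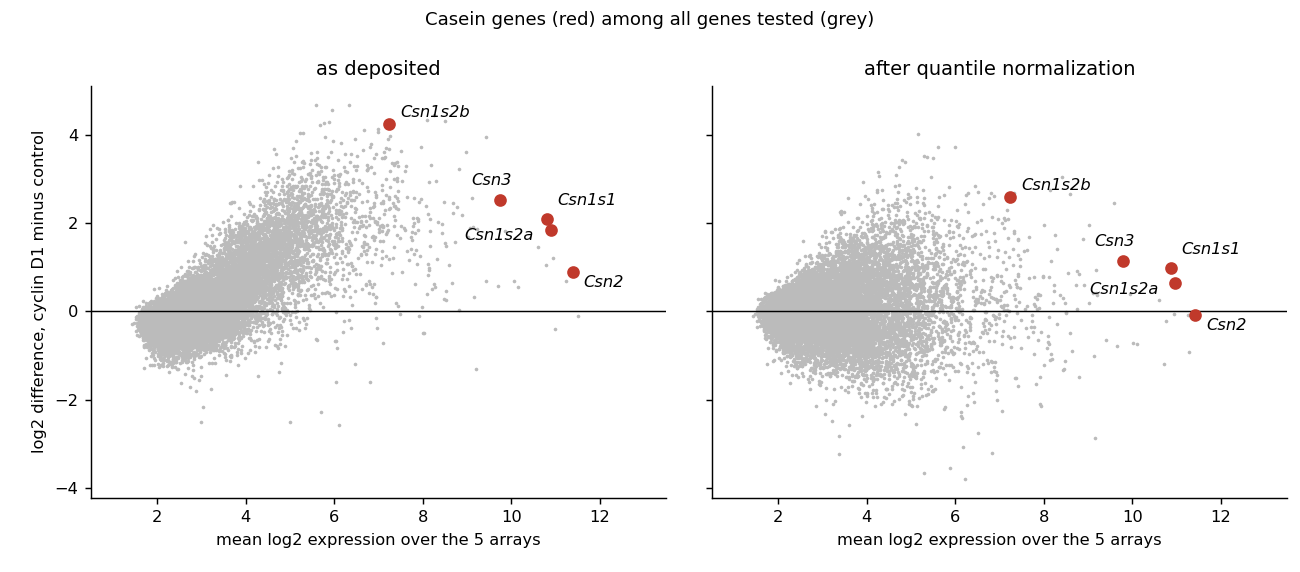
Log2 difference (cyclin D1 minus control) against mean log2 expression over the 5 arrays for all 19938 genes (grey) and the caseins (red), as deposited (left) and after quantile normalization (right). On the deposited scale differences climb with expression, with a median of 1.59 over the 1994 brightest genes; on the right this median is 0.36 and Csn2 lies at -0.09.

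The calls, more than the differences, changed when single mice were left out. Control 1 was the lower control for all 5 caseins as deposited, by 0.14 for Csn1s2b up to 0.97 for Csn1s1. Without control 1 the differences were 2.25 for Csn3, 1.6 for Csn1s1, 1.52 for Csn1s2a, 4.17 for Csn1s2b and 0.47 for Csn2. None of the 5 passed without it, and 0 of all genes did by limma, although 4973 genes had an unadjusted p under 0.05. Leaving out cyclin D1 replicate 1 or cyclin D1 replicate 2 also ended all 3 calls, with 0 genes called overall by limma and 3568 and 3491 genes at an unadjusted p under 0.05. The differences themselves were then 2.50 and 2.56 for Csn3, 2.05 and 2.06 for Csn1s1 and 1.80 and 1.94 for Csn1s2a, close to those over all 5 arrays. Without cyclin D1 replicate 3, Csn3 and Csn1s2b passed. Without control 2, Csn3, Csn1s1 and Csn1s2a passed. The deposited-scale direction was positive for every casein in each of these fits. In the fits that leave 1 control, that lone array is assumed to vary like the other group.

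**Figure D3:**
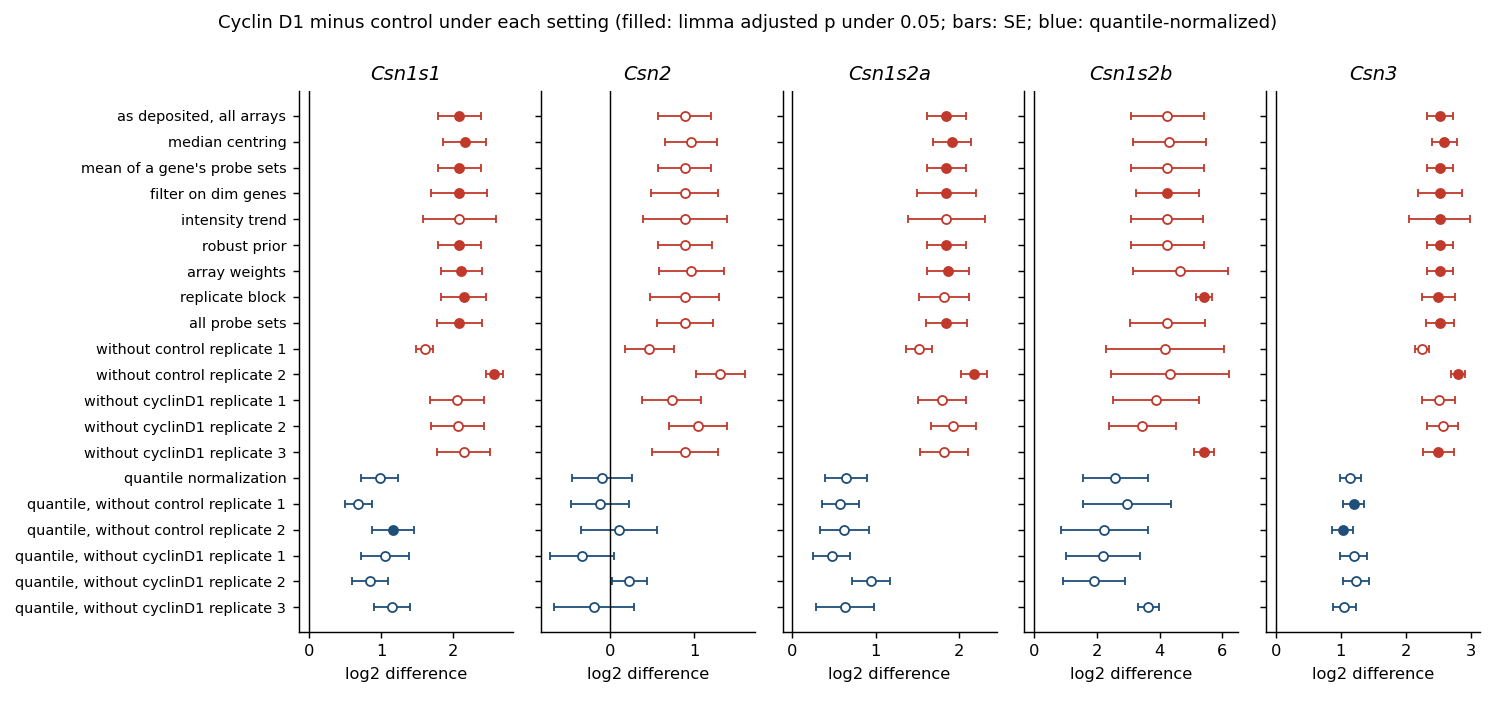
Log2 difference (cyclin D1 minus control) with its SE for each casein under every setting tried, as deposited in red and quantile-normalized in blue; filled points have a limma adjusted p under 0.05. Csn3 stays between 1.02 and 2.80, and Csn2 is the casein whose sign changes.

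Whether the caseins differed from one another in response was tested on the difference between 2 caseins on each array, for all 10 pairs. With 2 arrays against 3 the smallest p that an exact permutation test of the absolute difference in means can give is 0.1, so no pair could pass. The pair of Csn2 and Csn3 had one of the 5 smallest values. Csn2 stood above Csn3 by 2.48 and 2.76 in the controls and by 1.26, 0.76 and 0.94 in cyclin D1 glands, so the offset, which includes the probes' own response, was smaller by 1.63 (exact permutation p = 0.1, adjusted p = 0.2 over 10 pairs). For Csn2 and Csn1s2a the offset was smaller by 0.96 on the same terms, with 0.97 and 1.15 in the controls against 0.30, -0.04 and 0.04. Csn1s1 and Csn1s2a, the most similar pair, differed in response by 0.23 (exact permutation p = 0.4). All 10 pairs kept their sign after quantile normalization, where Csn2 against Csn3 gave -1.23. Pairs with Csn1s2b had exact permutation p-values of 0.2 to 0.4, and in 3 of these 4 pairs replicate 3 fell among or beyond the controls. Csn2 had the highest control mean of the caseins, and the part of signal level in the pair values was not tested.

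Of 12 markers of luminal epithelium, the layer that holds the secretory cells, 2 rose and 0 fell, against 5.38% of all genes called higher, and 10 did not pass. Epcam, an epithelial adhesion molecule, rose 5.63-fold (log2 difference 2.49, limma adjusted p = 0.0184), more than Csn1s1, Csn1s2a or Csn2, and E-cadherin, Cdh1, rose 2.59-fold (adjusted p = 0.0228). Krt8, a luminal keratin, differed by 1.44 (adjusted p = 0.125). After quantile normalization 0 of the 12 passed by limma and 3 had an unadjusted p under 0.05, with Epcam at 1.54 (adjusted p = 0.0630), Cdh1 at 0.88 (adjusted p = 0.0801) and Krt8 at 0.16. The 12 differences ran from -0.36 to 2.49 as deposited and from -0.64 to 1.54 after quantile normalization.

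The mean of the 12 markers was 3.21 and 3.30 in the controls and 4.04, 4.02 and 3.74 in cyclin D1 glands. The mean of the 5 caseins less this marker mean was 5.11 and 5.64 in the controls and 7.16, 7.15 and 6.73 in cyclin D1 glands. The groups did not overlap, and the difference was 1.64 (exact permutation p = 0.1, the smallest possible). The part of brightness in this gap was not tested: all 5 caseins but only 3 of the 12 markers were among the 1994 brightest genes. The median difference was 1.44 over these 3 markers and 0.37 over the other 9. The corresponding casein-less-marker values after quantile normalization were 5.98 and 5.98 against 6.96, 6.84 and 6.44, a difference of 0.77 (exact permutation p = 0.1). That mean covered unequal members, with 2.30 for Csn1s2b, 0.86 for Csn3, 0.69 for Csn1s1, 0.36 for Csn1s2a and -0.37 for Csn2, and the groups overlapped for Csn1s2a and Csn2. As deposited the value for Csn2 was 0.21, also with overlapping groups, so its sign depended on the scale. The part of epithelial content in the casein values was not tested beyond this.

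**Figure D4:**
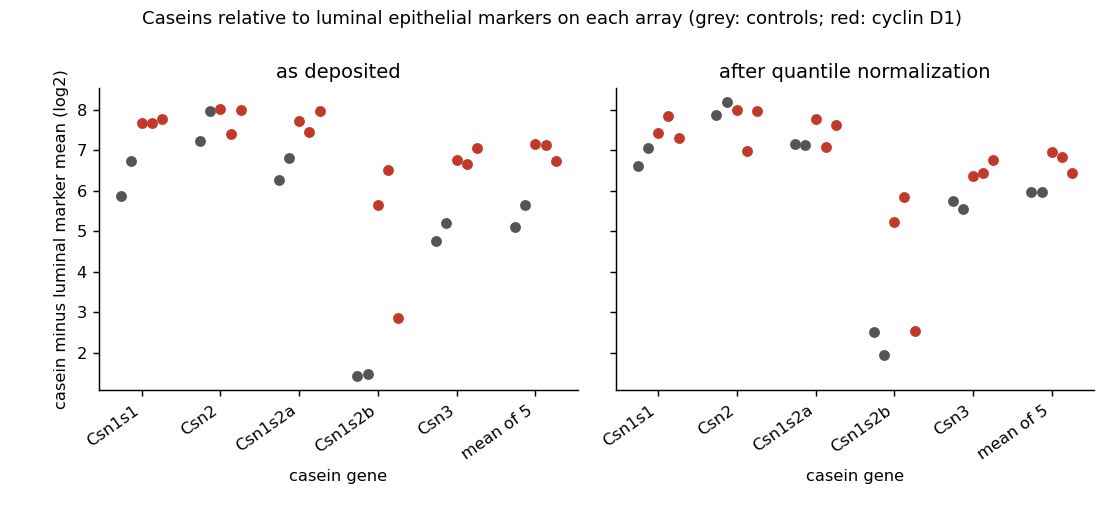
Each casein, and the mean of the 5, less the mean of 12 luminal epithelial markers on the same array, in log2 units (grey, controls; red, cyclin D1 glands), as deposited and after quantile normalization. The mean of the 5 separates the groups in both panels, whereas Csn2 overlaps in both.

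Other cell types were read from their own lists. Of 10 myoepithelial markers 1 rose, against 5.38% of all genes. This was the smooth muscle actin gene Acta2, by 2.48 on the log2 scale (limma adjusted p = 0.0349), and after quantile normalization it differed by 0.92 and did not pass (adjusted p = 0.176). The smooth muscle myosin gene Myh11 differed by 1.66 and Trp63, a basal transcription factor, by 0.36. Neither of these passed. Of the 10 myoepithelial differences 4 were negative, down to -0.29, against 55.7% of all genes. Of 11 adipocyte markers 0 passed by limma and 1 had an unadjusted p under 0.05, and their mean was 4.84 and 5.05 in the controls and 5.87, 4.75 and 5.34 in cyclin D1 glands. Lpl, which also serves milk fat uptake, differed by 1.85, the lipase gene Pnpla2 by 0.73 and Pparg, the adipocyte regulator, by 0.76, with 0.08, -0.17 and -0.45 after quantile normalization. Over the list 7 of the 11 differences were positive as deposited, against 44.3% of all genes, and 4 were negative. On the quantile-normalized scale 8 were negative, against 52.2% of all genes, and the median was -0.45 and the lowest -1.65. Cyclin D1 replicate 2, with the lowest adipocyte mean, had the highest Csn1s2b, whereas replicate 3, with the lowest Csn1s2b, was intermediate in adipocyte mean.

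Of 9 fibroblast and 7 endothelial markers 0 passed by limma, and 0 had an unadjusted p under 0.05. The fibroblast genes Col3a1, Dcn and Pdgfra differed by 0.43, 1.07 and 0.33, and 3 of the 9 fibroblast markers had negative differences, down to -0.20. The fibroblast median was -0.09 after quantile normalization, Dcn stood at -0.65, and 3 of the 9 had an unadjusted p under 0.05. The endothelial genes Emcn, Kdr and Cdh5 differed by 0.89, 0.42 and 0.49, and 2 of the 7 endothelial markers had negative differences, down to -0.22. Among 7 macrophage markers 0 passed by limma and 3 had an unadjusted p under 0.05, against 26.3% of all genes, with Mrc1 at 1.11, Cd14 at 1.81 and Cd68 at 1.41. The other members reached down to -0.11, and the list's median of 1.11 became 0.20 after quantile normalization. Lymphocyte markers were 0 of 10, with Cd79a at -0.43, Cd79b at -0.36 and Cd3d at -0.25, and skeletal muscle markers 0 of 6, with Myh4 at -0.41, Acta1 at -0.23 and Actn3 at -0.29. In both of these lists 0 had an unadjusted p under 0.05 by limma as deposited, and 0 and 2 did after quantile normalization. A marker that missed the threshold is not shown to be equal between the groups.

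Regulators of casein transcription had a smaller median difference than the caseins. Of 24 measured, 3 rose and 0 fell, against 5.38% of all genes called higher and 0.687% lower, with a median difference of 0.46. This median takes no account of whether a member drives or restrains casein transcription. The median was 1.45 over the 12 regulators among the 1994 brightest genes, which hold all 5 caseins, and 0.07 over the other 12. After quantile normalization the list's median was -0.10, 0 passed by limma and 7 had an unadjusted p under 0.05, against 18.7% of all genes. Elf5, an ETS factor of alveolar cells, measured 2.94 and 3.89 in the controls, against 6.64, 7.39 and 6.52 in cyclin D1 glands, a 10.8-fold rise (limma adjusted p = 0.0192). Its groups were far apart, and it differed by 2.58 after quantile normalization (adjusted p = 0.0630). Ehf, another epithelial ETS factor, rose 6.30-fold (log2 difference 2.65, adjusted p = 0.0168), with a log2 difference of 1.21 after quantile normalization (adjusted p = 0.108). Nr3c1, the glucocorticoid receptor, rose 2.65-fold (adjusted p = 0.0385), with -0.07 after quantile normalization, so that its direction depended on the scale. The core of the prolactin pathway and Cebpb, which encodes C/EBPbeta, are given although these genes were chosen after their values were seen. Jak2 differed by 1.87 (adjusted p = 0.0873), Stat5a by 0.48 (adjusted p = 0.348) and Stat5b by 0.28 (adjusted p = 0.273), none passing, and Stat5a and Stat5b had -0.66 and -0.13 after quantile normalization. For Cebpb the difference was negative, -0.18 as deposited with overlapping groups (limma adjusted p = 0.639). On the quantile-normalized scale it was -0.97 and did not pass either (limma adjusted p = 0.0777). Prlr, the prolactin receptor, had no probe set of its own here and was not analysed.

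Genes that phosphorylate caseins or supply calcium, phosphate and zinc to milk formed a list of 21 measured members. Of these 3 rose and 0 fell, against 5.38% of all genes called higher and 0.687% lower, and the median difference was 0.45. The median was 2.43 over the 9 members among the 1994 brightest genes and 0.20 over the other 12. After quantile normalization the list's median was 0.31, 0 passed by limma and 6 had an unadjusted p under 0.05, against 18.7% of all genes. Nucb2, a calcium-binding protein, rose 11.1-fold (limma adjusted p = 0.0168), from 4.62 and 4.99 in the controls to 8.25, 8.84 and 7.75. Atp2a2, the calcium pump of the endoplasmic reticulum, rose 6.09-fold (adjusted p = 0.0220). Fam20a, a pseudokinase partner of the casein kinase, rose 3.93-fold (adjusted p = 0.0420). The log2 differences of Nucb2, Atp2a2 and Fam20a after quantile normalization were 1.78, 1.56 and 1.31. Fam20c, the secretory-pathway kinase that phosphorylates caseins and was chosen after its values were seen, measured 3.8 and 3.28 in the controls, against 3.46, 3.96 and 3.93 in cyclin D1 glands. Its groups overlapped (log2 difference 0.24, adjusted p = 0.552).

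Other milk proteins had a larger median difference than the caseins. Of 19 measured, 11 rose and 0 fell, against 5.38% and 0.687% of all genes. Of these 19, 15 were among the 1994 brightest genes, of which 36.0% were called higher. The median was 3.19, and 2.24 after quantile normalization, where 1 passed, against 0.256% of all genes called higher. Plin2, the coat of lipid droplets, rose 12.0-fold (limma adjusted p = 0.0157), Cd36, a fatty acid transporter that fat cells and endothelium also express, 5.14-fold (adjusted p = 0.0165) and Xdh, needed for fat globule secretion, 9.88-fold (adjusted p = 0.0168). Plin2 was the one that passed after quantile normalization (log2 difference 2.79, adjusted p = 0.0434), with Xdh at 2.24 and Cd36 at 0.85. Wap, whey acidic protein, was chosen after its values were seen and did not pass (adjusted p = 0.0574). It measured 4.71 and 6.46 in the controls, against 9.52, 11.65 and 8.95 in cyclin D1 glands, and like Csn1s2b was lowest in replicate 3 of that group.

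The genes whose pattern over the 5 arrays was most like the mean of the caseins were on none of the lists. Likeness was measured as the root mean square distance between log2 values centred on each gene's own mean. Cnot7, a deadenylase subunit, was the closest at 0.08, followed by Asf1a, a histone chaperone, at 0.09, BC005537 and Eloc, a subunit of elongin, at 0.12 each and Ube2v1, a ubiquitin-conjugating enzyme variant, at 0.12. Their differences, fixed by this choice and given with no test, were 2.11 (Ube2v1) to 2.42 (Asf1a), and 0.97 (Eloc) to 1.82 (Asf1a) after quantile normalization. Among the caseins themselves the distance from their own mean was 0.25 for Csn1s1, 0.30 for Csn3, 0.38 for Csn1s2a, 0.77 for Csn2 and 1.43 for Csn1s2b. A shared pattern over 5 arrays, in which bright genes moved together, is a description of these arrays.

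The caseins lie next to each other on mouse chromosome 5 in the RefSeq gene order, with Csn3 set apart from the other 4. Of 24 measured neighbours, 10 on each side and 4 between the members, 1 rose and 0 fell, a share near the 5.38% and 0.687% of all genes. An unadjusted p under 0.05 by limma was held by 11 of the 24, against 26.3% of all genes. All cyclin D1 values lay below both controls for 12 neighbours, against 22.6% of all genes. They lay above both for 1, against 22.4%. Negative differences numbered 20, where 55.7% of all genes had one, and the median was -0.43. The median after quantile normalization was -0.23. Prr27, Gm7337, Odam and BC037156, which lie between Csn1s2b and Csn3, differed by -0.48, 0.05, -0.38 and -0.48. On the side of Csn1s1, the estrogen sulfotransferase gene Sult1e1 differed by -0.45, Sult1d1 by 0.20, Sult1b1 by -0.21, and the 7 glucuronosyltransferase genes Ugt2b38, Ugt2a3, Ugt2b37, Ugt2b5, Ugt2b36, Ugt2b35 and Ugt2b1 by -1.12 (Ugt2b5) to 0.01 (Ugt2b38). Beyond Csn3, BC051076, Cabs1, Smr3a, Smr2, Prol1, the enamel genes Amtn, Ambn and Enam, and Jchain, the joining chain of secreted antibodies, differed by -0.72 (BC051076) to -0.01 (Jchain). Utp3, a ribosome assembly gene at the far end, differed by 1.41 (limma adjusted p = 0.0361), from 3.22 and 3.76 to 4.99, 5.08 and 4.62, and by 0.82 without a call after quantile normalization (adjusted p = 0.146). Apart from Utp3 these genes were dim: 8 of the 24 lay at or below the olfactory receptor mean on all 5 arrays. The median difference was -0.095 over the 17944 genes outside the brightest 1994, against -0.43 over the neighbours. The part of signal level in the neighbours' differences was not tested.

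**Figure D5:**
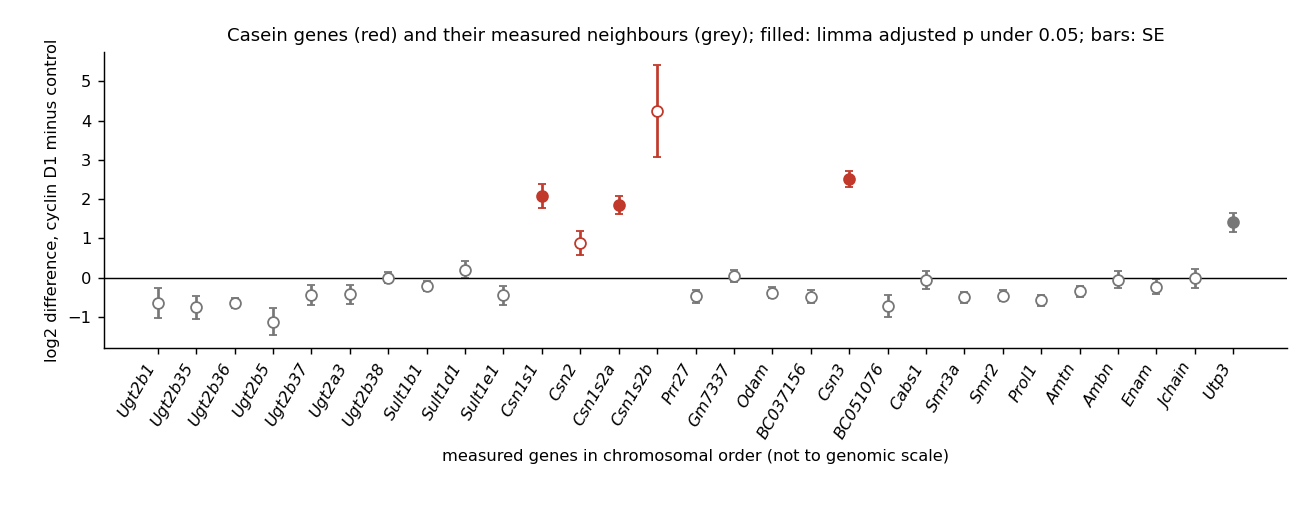
Log2 difference (cyclin D1 minus control) with its SE for the caseins (red) and their measured neighbours (grey) in chromosomal order, not to genomic scale; filled points have a limma adjusted p under 0.05. The caseins lie between 0.89 and 4.25, and all neighbours but Utp3 lie between -1.12 and 0.20.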

How the data were processed

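The deposited table holds log2 expression values for 35556 probe sets, deposited by the authors after RMA (background correction, quantile normalization and probe-set summary) in Affymetrix Expression Console 1.1, per the submitters' processing notes. The log base was read from the values (0.830 to 12.9). The sources used here do not say if RMA was run on further arrays as well. Gene values nevertheless spread unequally over the 5 deposited arrays (SD 0.735 to 1.38), and the reason was not tested. No raw intensities or detection calls were used, so the number of arrays limits the precision. Platform annotation paired 21789 probe sets with 1 symbol, 1621 with several and 12146 with none. By Entrez identifier, 21698 of the first matched RefSeq (GRCm38.p6). The probe set with the highest mean stood for each symbol, giving 19938 genes, with no filter on dim genes.

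Groups came from the titles. The comparison used limma's lmFit and eBayes (version 3.58.1, R version 4.3.3, 2-sided, 3 residual and 2.39 prior degrees of freedom). Benjamini-Hochberg adjustment ran over all genes, with a threshold of 0.05. The fit was also run on simulated data with known changes and equal noise on all arrays. That run checked recovery of the planted differences and did not include the unequal spread of these arrays. Single values per array were compared by exact 2-sided permutation over the 5 arrays. The members and lists were chosen with earlier results of these data known. Genes named are the caseins and the 3 members of each list with the smallest p. The 5 genes nearest to the casein mean and the cluster's neighbours are named as well. Any other is marked as chosen after its values were seen or as outside this rule. Alternatives were quantile normalization of the 5 arrays, median centring, averaging probe sets per gene, a filter (log2 of at least 4 on 2 arrays), an intensity trend or robust prior, array weights, all probe sets, a replicate block and leaving out each array. The replicate numbers share nothing in the labels but a number.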

Additional observations from a re-analysis of the deposited data

How the results depend on the processing

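Over 19 alternatives for each of the 5 caseins, 59 of the 95 values kept their direction and side of the threshold. Another 29 kept the direction but no longer passed, 3 came to pass and 4 turned sign, all of Csn2. For the called genes Csn3, Csn1s1 and Csn1s2a, 12, 9 and 7 of the 19 alternatives kept the call, and 7, 10 and 12 lost it. Csn1s2b and Csn2, not called to begin with, stayed so with the same sign in 16 and 15. Quantile normalization gave 0.98 for Csn1s1, 0.64 for Csn1s2a, 1.14 for Csn3 and -0.088 for Csn2, a casein median of 0.98, 0 caseins called, and 51 genes higher and 21 lower (70.8% of calls higher, against 88.7% as deposited, where 1072 were higher and 137 lower). An intensity trend left Csn1s1 at 2.08 (limma adjusted p = 0.0657) and Csn1s2a at 1.85 (adjusted p = 0.0714) without a call, so 1 casein was called, with 622 genes higher. The filter on dim genes tests fewer genes and called Csn1s2b (4.25, adjusted p = 0.0125), with 1971 higher, 16 lower and 99.2% of calls higher. Array weights gave 263 higher and 4 lower. In the replicate block, where cyclin D1 replicate 3 has no partner and does not inform the difference, Csn1s2b was 5.42 and called (adjusted p = 0.0270), Csn1s2a was 1.82 and not called (adjusted p = 0.0534), and 10 genes were lower. Deviations of same-numbered arrays correlated across genes at -0.026 and 0.126, so the numbers were not taken to pair the mice.

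With each array left out in turn, on the deposited and the quantile-normalized scale, Csn1s1 ranged over 1.6 to 2.57 and 0.69 to 1.16, Csn1s2a over 1.52 to 2.18 and 0.47 to 0.95, Csn1s2b over 3.45 to 5.42 and 1.93 to 3.65, Csn2 over 0.47 to 1.31 and -0.32 to 0.23, and Csn3 over 2.25 to 2.80 and 1.02 to 1.23. The casein median ranged over 1.6 to 2.57 and 0.69 to 1.05, the caseins called over 0 to 3 and 0 to 2, the genes called higher over 0 to 1365 and 0 to 2221, and those called lower over 0 to 1063 and 0 to 3154. The cause of these changes was not tested.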
